A study of Homo sapiens with 6 samples.

Results

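The 40 interferon-stimulated genes described here are genes known from other work to be switched on when a cell senses interferon. They were chosen by symbol as established interferon targets, with earlier results of these data known. They came from among 23617 gene symbols measured in MDA-MB-231 and 1854 listed for HMLER. All 40 were found in the MDA-MB-231 table, with 75 RefSeq transcripts. MDA-MB-231 is a human breast cancer cell line, and HMLER is a line of human mammary cells transformed in vitro. RNA-seq was run on 6 libraries. HMLER had 2 with decitabine (DAC) and 2 without, and MDA-MB-231 had 1 with DAC and 1 without. The treated cells of both lines received 10 µM DAC, renewed daily, and were collected 72 h after the first dose, whereas the untreated cells received none, and whether they received a vehicle is not given in the sources used here. The medium of HMLER cells, treated or not, also held EGF, hydrocortisone, puromycin and insulin. Each library was a pool of several independent RNA extractions.

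Interferons are secreted proteins that bind receptors on the cell surface, whose JAK1 and TYK2 kinases then phosphorylate transcription factors such as STAT2. STAT2 and IRF9 are parts of a complex that binds the interferon-stimulated response element (ISRE) in the promoters of the genes that respond. Many of the products act against viruses, by binding or cutting viral RNA, blocking entry, or adding the ubiquitin-like protein ISG15 to other proteins. DAC is a cytidine analog that is built into DNA and traps DNA methyltransferases, so that methylation is lost as cells divide.

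The values deposited by the authors are FPKM, the number of sequenced fragments divided by transcript length and by library size, for each RefSeq transcript. In MDA-MB-231 the FPKM of all transcripts of a symbol were summed here. In HMLER the libraries of a condition were merged into 1 value, and in MDA-MB-231 each condition was sequenced as 1 library, so neither line has a replicate check and no p-value is given. The HMLER table was restricted to transcripts that were higher after DAC: its lowest DAC/untreated ratio was 2.0 and its lowest DAC value 1.0 FPKM. For a gene that it does not list, no HMLER value was analysed here. The HMLER value of a gene sums only its listed transcripts, 1 of 5 for IFIT1 and 1 of 3 for OASL. It can therefore be a part of the gene's level, and its ratio that of the part. The low MDA-MB-231 values of longer genes with a single transcript fell on whole multiples of what 1 read was worth. This gave about 42400000 fragments for the untreated and about 42200000 for the DAC library. Among the 11292 symbols that reached 1 FPKM in both MDA-MB-231 libraries, the median DAC/untreated ratio was 0.912 (-0.13 in log2), and the members' values are to be read against that shift.

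Promoters of 32 of the 40 genes were found in the RefSeq table (GRCh38.p14), each running from 250 bases before the start of the gene to 50 bases after it. OAS2, MX2, GBP2, USP18, IFIT2, IFITM2, TRIM22 and OASL had no entry. They were searched on both strands for the ISRE core GAAANNGAAA (TTTCNNTTTC on the opposite strand) and for the core TTCNNNGAA of the gamma-activated site, which reads the same on both strands. The ISRE core was found in 22 of 32 members (68.8%) and in 996 of 27305 promoters in all (3.65%). The TTCNNNGAA core was found in 9 of 32 members (28.1%) and in 7.88% of all promoters. The 38 ISRE core matches of the members lay between 164 bases before and 12 bases after the start, with a median of 90.5 bases before it, and 13 promoters held 2 or more. Of these matches, 5 overlapped a TTCNNNGAA match and 6 overlapped another ISRE match. A match describes the letters only, and binding was not measured.

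The promoters below belong to the 3 genes with the largest log2 change in MDA-MB-231 and to the 3 genes with the largest log2 change in HMLER among those with an entry that were listed there and at 1 FPKM or more, but not past 2-fold, in MDA-MB-231. Capitals mark the ISRE core.
ISG20: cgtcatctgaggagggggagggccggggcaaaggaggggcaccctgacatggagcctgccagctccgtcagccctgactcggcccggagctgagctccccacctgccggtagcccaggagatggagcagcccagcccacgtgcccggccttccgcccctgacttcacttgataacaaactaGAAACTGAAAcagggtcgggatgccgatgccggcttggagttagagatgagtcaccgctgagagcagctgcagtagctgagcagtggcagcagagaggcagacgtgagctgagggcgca
UBE2L6: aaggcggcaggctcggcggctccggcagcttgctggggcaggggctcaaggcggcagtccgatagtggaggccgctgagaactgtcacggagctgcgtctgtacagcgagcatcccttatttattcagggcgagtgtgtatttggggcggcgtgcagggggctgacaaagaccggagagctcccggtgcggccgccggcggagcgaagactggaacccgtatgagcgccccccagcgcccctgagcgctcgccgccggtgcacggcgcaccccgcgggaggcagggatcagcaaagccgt
IFI6: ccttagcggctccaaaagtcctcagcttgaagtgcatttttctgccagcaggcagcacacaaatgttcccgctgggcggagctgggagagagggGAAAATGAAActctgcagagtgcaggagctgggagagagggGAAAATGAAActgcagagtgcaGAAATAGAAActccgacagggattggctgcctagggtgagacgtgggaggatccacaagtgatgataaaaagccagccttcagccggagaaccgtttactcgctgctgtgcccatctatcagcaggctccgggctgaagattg
HERC5: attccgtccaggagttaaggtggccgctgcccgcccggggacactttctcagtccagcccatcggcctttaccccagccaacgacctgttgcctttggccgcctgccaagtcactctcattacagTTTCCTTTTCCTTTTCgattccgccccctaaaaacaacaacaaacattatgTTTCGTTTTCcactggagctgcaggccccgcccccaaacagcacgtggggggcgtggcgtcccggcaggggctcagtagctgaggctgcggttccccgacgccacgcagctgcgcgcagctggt
IFIT3: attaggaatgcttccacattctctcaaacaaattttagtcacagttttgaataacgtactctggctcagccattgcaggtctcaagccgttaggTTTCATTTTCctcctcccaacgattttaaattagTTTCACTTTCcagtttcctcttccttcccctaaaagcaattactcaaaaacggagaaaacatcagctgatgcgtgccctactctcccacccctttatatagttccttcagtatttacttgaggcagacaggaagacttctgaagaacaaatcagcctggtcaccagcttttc
DDX60: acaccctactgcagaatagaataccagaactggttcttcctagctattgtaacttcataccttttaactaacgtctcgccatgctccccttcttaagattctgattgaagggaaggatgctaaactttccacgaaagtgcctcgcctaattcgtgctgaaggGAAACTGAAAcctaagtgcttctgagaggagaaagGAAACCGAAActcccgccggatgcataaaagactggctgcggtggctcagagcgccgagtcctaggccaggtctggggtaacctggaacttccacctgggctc
ISG20 (chr15:88638766-88639065, plus strand) held 1 match, IFI6 (chr1:27672143-27672442, minus strand) 3, HERC5 (chr4:88456869-88457168, plus strand) 3, IFIT3 (chr10:89327747-89328046, plus strand) 2 and DDX60 (chr4:168318703-168319002, minus strand) 2. In HERC5 the matches at 125 and 119 bases before the start overlapped. UBE2L6 (chr11:57567886-57568185, minus strand) held none, and had 32 CpG dinucleotides, against 15 in ISG20 and 9 in IFI6. CpG sites are where DNA methyltransferases act. Over the members, the observed/expected CpG ratio had a median of 0.40, and over all promoters 0.58. The share with an ISRE core was 5 of 7 among members at 1 FPKM or more and more than 2-fold higher in MDA-MB-231. It was 9 of 10 among those listed for HMLER, and 12 of 19 (63.2%) among those that were neither. The 19 are not a set of genes that were not higher. Some, such as OAS3 and EPSTI1, were under 1 FPKM in MDA-MB-231 and had more reads after DAC, and none has an HMLER value.

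In MDA-MB-231, 23 members reached 1 FPKM in at least 1 library, 17 did not. Of the 23, 9 (39.1%) were more than 2-fold higher after DAC: ISG15, UBE2L6, IFIT1, IFIT2, OASL, ISG20, IFI6, IFI35 and PARP14. Over all 12525 symbols at that level the share was 10.8%. No member was more than 2-fold lower, where 4.82% of all symbols were. The remaining 14 lay between, 9 with a ratio above 1 and 5 below it. ISG20 and DDX60 passed the 1 FPKM filter only through the DAC library. With 1 FPKM asked of both libraries, 8 of 21 members (38.1%) were higher, and 4.37% of all symbols. The median change of the 23 was 0.63 on the log2(FPKM + 1) scale, and -0.08 over all symbols. The log2 change was above that median in 19 of the 23. Both libraries were sequenced once, and the bounds that Cuffdiff gave the largest transcript of each gene overlapped between the libraries for all 23, whereas 1.06% of symbols were higher with bounds apart. From the inferred reads, the exact binomial 95% interval of the ratio lay wholly above 2 in 8 of the 9, and held 2 in PARP14. These intervals cover counting error only and compare the libraries, not the conditions. The 9 were picked by their ratio in these same libraries, so the intervals add no independent support. How many of all higher symbols had such an interval was not computed.

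**Figure D1:**
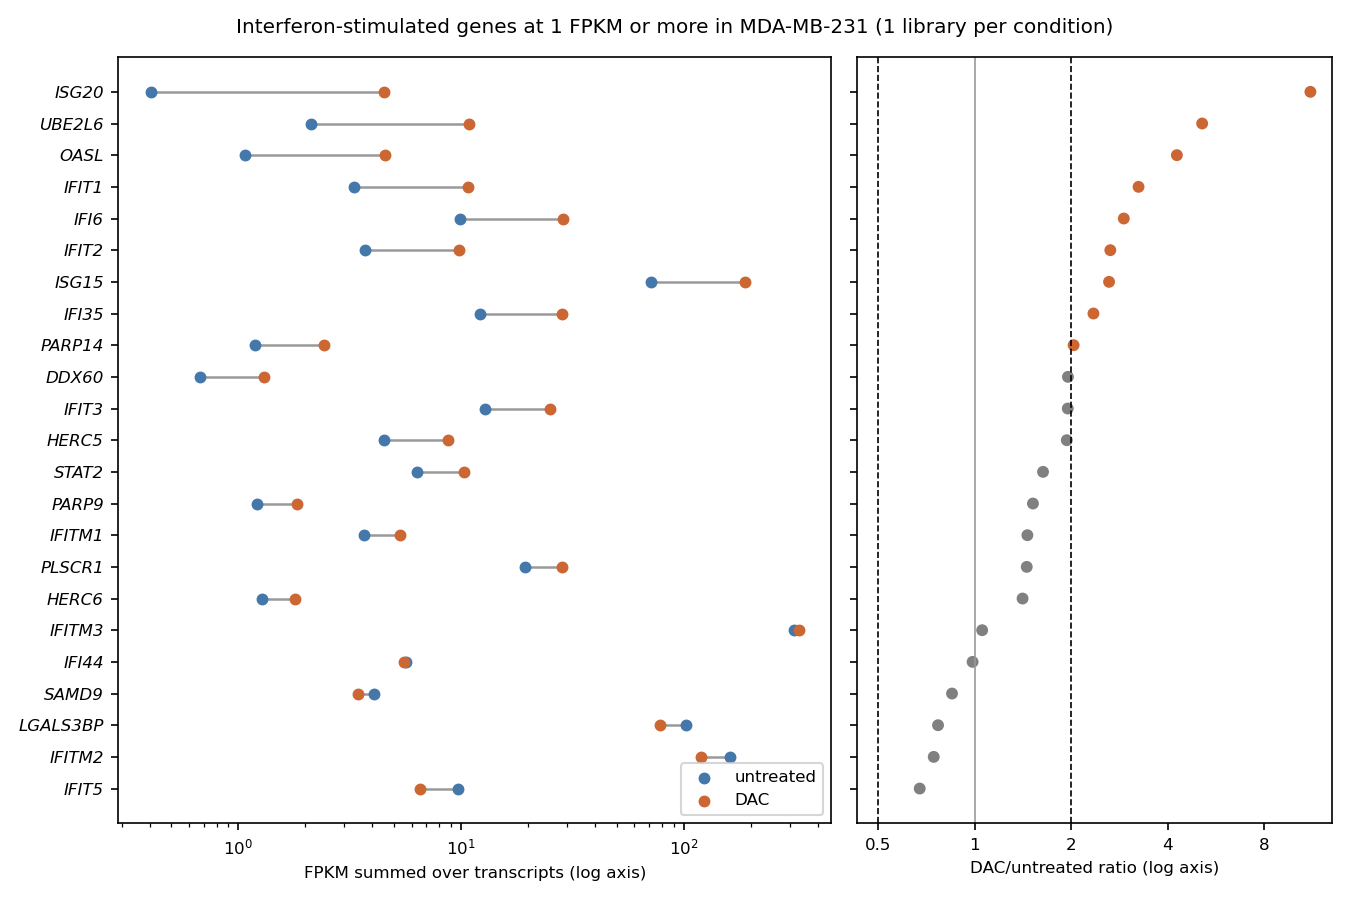
FPKM in the untreated (blue) and DAC (orange) MDA-MB-231 library, left, and the DAC/untreated ratio, right, of the 23 members at 1 FPKM or more, both on log axes, with 1 library per condition and no error. Dashed lines mark 2-fold; 9 members lie above 2, from PARP14 at 2.03 to ISG20 at 11.1, 3 lie just under it, and none lies under 0.5.

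The ISG15 group held some of the clearest differences. ISG15 (hg19 chr1:948847-949919) is a ubiquitin-like protein that is joined to other proteins. It stood at 71.4 FPKM untreated and 187 FPKM after DAC in MDA-MB-231, a ratio of 2.62, and at 20.04 and 224 FPKM in HMLER, a ratio of 11.2. Among the members listed for HMLER, ISG15 had the highest DAC value there. In MDA-MB-231, among all members, only IFITM3, which was not listed for HMLER, was higher than ISG15 after DAC. UBE2L6 (hg19 chr11:57319128-57335803), the enzyme that carries ISG15 to its ligase, went from 2.13 to 10.9 FPKM in MDA-MB-231, a ratio of 5.12 with a counting interval of 4.14 to 6.48. It was not listed for HMLER. HERC5 (hg19 chr4:89378268-89427319) is the main ISG15 ligase in human cells. It stood at 4.52 and 8.75 FPKM in MDA-MB-231, a ratio of 1.94 whose counting interval, 1.76 to 2.13, holds 2. In HMLER it stood at 0.246 and 5.70 FPKM, 23.2-fold higher. The HERC5 levels after DAC were thus closer between the lines than the untreated levels, on 2 tables that were normalized separately. HERC6, a relative of HERC5, had 1.28 and 1.80 FPKM in MDA-MB-231. USP18, the protease that removes ISG15, stayed under 1 FPKM there, with 22 and 41 inferred reads, and had 1.63 and 6.35 FPKM in HMLER.

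The IFIT proteins bind the ends of foreign RNA, and their genes lie side by side at hg19 chr10:91061706-91180759. IFIT1 stood at 3.31 FPKM untreated and 10.7 after DAC in MDA-MB-231, 3.24-fold, and at 1.62 and 8.69 in HMLER, 5.36-fold. IFIT2 stood at 3.69 and 9.78 FPKM in MDA-MB-231, 2.65-fold, and at 2.10 and 13.9 in HMLER, 6.63-fold. IFIT3, at 12.8 and 24.98 FPKM in MDA-MB-231, fell just short of the threshold with a ratio of 1.95, and had 4.72 and 21.2 FPKM in HMLER. These 3 neighbours were higher after DAC in each line, with the larger ratio in HMLER each time. The comparison of ratios is not even-handed, since a 2-fold difference was required for listing in HMLER and only listed transcripts count there. IFIT5, the fourth gene of the cluster, went the other way in MDA-MB-231, from 9.68 to 6.52 FPKM, a ratio of 0.673 (counting interval 0.622 to 0.728), and was not listed for HMLER. Its promoter held 3 ISRE cores, more than the 2 of IFIT1 and of IFIT3.

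The OAS enzymes sense double-stranded RNA and make the messenger that activates the nuclease RNase L, and OASL is a relative without that activity. OASL (hg19 chr12:121458095-121477045) was the only gene of the group above 1 FPKM in MDA-MB-231, with 1.07 FPKM untreated and 4.58 after DAC, 4.27-fold, and it had 5.09 and 17.5 FPKM in HMLER, 3.43-fold. OAS1 and OAS2, both under 1 FPKM in MDA-MB-231, were listed for HMLER at 4.87 and 10.2 FPKM and at 1.10 and 6.13 FPKM. OAS3 was not listed for HMLER. ISG20 (hg19 chr15:89182039-89198879), a nuclease that degrades single-stranded RNA, had the largest ratio of the 23 in MDA-MB-231, with 0.406 and 4.52 FPKM. Its 13 untreated and 146 DAC reads gave a ratio of 11.3 with a counting interval of 6.41 to 21.7. In HMLER, where it was already at 8.996 FPKM untreated, it reached 19.6 FPKM, 2.18-fold. RSAD2 (viperin) and CMPK2, both enzymes that act on nucleotides, stayed near 0 in MDA-MB-231 and were not listed for HMLER.

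The genes named IFI are named for their induction by interferon. IFI6 (hg19 chr1:27992572-27998724), a small membrane protein, stood at 9.89 and 28.8 FPKM in MDA-MB-231, 2.92-fold, and at 28.03 and 63.7 FPKM in HMLER, 2.27-fold. IFI35 (hg19 chr17:41158742-41166476) stood at 12.1 and 28.5 FPKM in MDA-MB-231, 2.35-fold, and was not listed for HMLER. IFI44 was level in MDA-MB-231, at 5.64 and 5.55 FPKM, and was listed for HMLER at 4.62 and 11.8 FPKM. Its ratio of 0.984 in MDA-MB-231 became 1.08 once divided by the median ratio of all genes. IFI44L, its neighbour on chromosome 1, and IFI27 were under 1 FPKM in MDA-MB-231 and not listed for HMLER.

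IFITM3 and IFITM2, membrane proteins that block virus entry, had the highest untreated levels of the members in MDA-MB-231, and no gene of the family was past 2-fold. IFITM3 stood at 312 FPKM untreated and 329 after DAC, IFITM2 at 161 and 120, and IFITM1 at 3.66 and 5.34. These genes are near-identical neighbours on chromosome 11, so how the reads were split among them is uncertain. None was listed for HMLER. BST2 (tetherin), which holds budding virus at the cell surface, had 0 reads untreated and 2 after DAC in MDA-MB-231, and its promoter held 2 overlapping ISRE cores.

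Of the remaining members, PARP14, which adds ADP-ribose to proteins, stood at 1.19 and 2.42 FPKM in MDA-MB-231, a ratio of 2.03. Its partner in the family PARP9 stood at 1.21 and 1.84 FPKM. STAT2, part of the factor that binds the ISRE, stood at 6.33 and 10.3 FPKM, and PLSCR1, a phospholipid scramblase, at 19.5 and 28.3 FPKM. DDX60, a helicase-like protein, had 0.672 and 1.31 FPKM in MDA-MB-231, 1.95-fold, and 1.61 and 6.26 FPKM in HMLER, 3.90-fold. SAMD9, which restrains growth of cells and poxviruses, had 4.06 and 3.45 FPKM in MDA-MB-231 and 2.82 and 6.62 FPKM in HMLER, so it was higher in HMLER and had a ratio of 0.849 in MDA-MB-231. LGALS3BP, a secreted glycoprotein, had 102 and 78.3 FPKM in MDA-MB-231 and was not listed for HMLER. The GTPases MX1, MX2, GBP1 and GBP2 were under 1 FPKM in both MDA-MB-231 libraries. MX2 was listed for HMLER at 0.0352 and 1.05 FPKM, the lowest DAC value of the members listed there, so its ratio of 29.9 rests on a level near 0.

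Over all 40 members, 15 (37.5%) were listed for HMLER, with 19 transcripts, and 7.85% of all symbols of the MDA-MB-231 table were. Of the 23 members at 1 FPKM or more in MDA-MB-231, 11 (47.8%) were listed, beside 10.9% of all symbols at that level. The ratios of the 15 ran from 2.09 in OAS1 to 29.9 in MX2, with a median of 3.90. Over all 1854 symbols listed the median was 3.62, close to that of the members. On the log2(FPKM + 1) scale the median change was 1.48 for the 15 members and 1.19 for all symbols listed. The other 25 members could have been lower, unchanged, higher by less than 2-fold or too low in HMLER.

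**Figure D2:**
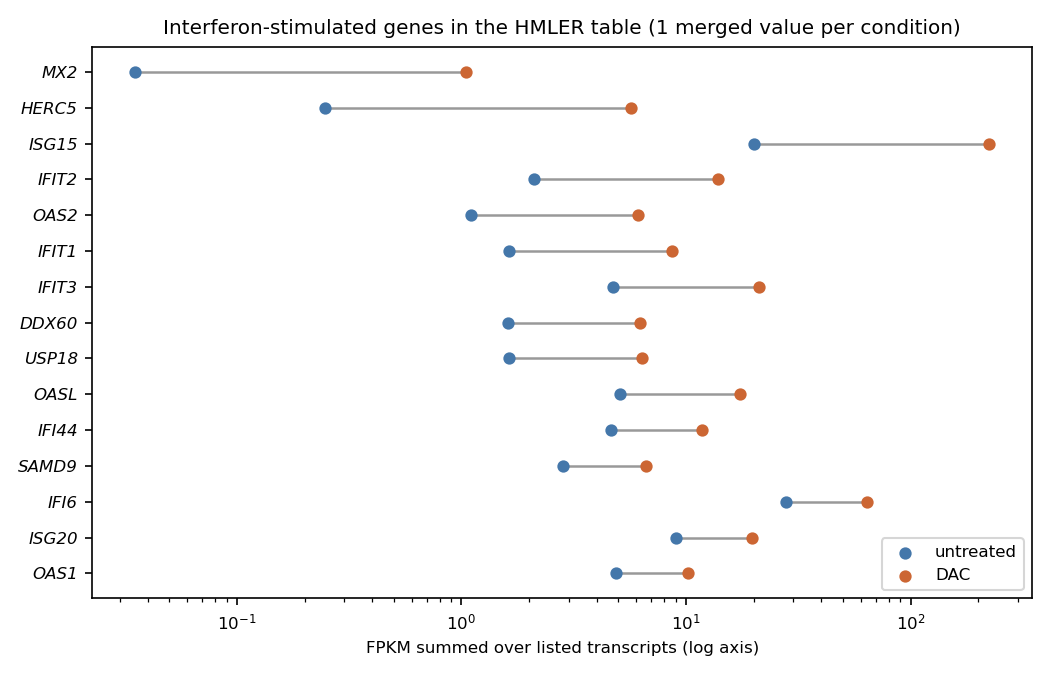
FPKM summed over listed transcripts in untreated (blue) and DAC-treated (orange) HMLER cells, on a log axis, of the 15 members listed. Each is a single value merged over its libraries with no error. ISG15 reached the highest level, from 20.04 to 224 FPKM, and MX2 had the lowest untreated level, 0.0352 FPKM.

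Both lines shared 6 members that were more than 2-fold higher: ISG15, IFIT1, IFIT2, OASL, IFI6 and ISG20. These 6 made up 26.1% of the 23 members at 1 FPKM or more in MDA-MB-231, beside 3.66% of all symbols. ISG20 passed that filter only through the DAC library. With 1 FPKM asked of both libraries the number was 5 of 21, and the share of all symbols was not computed for that filter. The 6 were 66.7% of the members higher in MDA-MB-231. Of all 1350 symbols higher there, 459 were listed for HMLER. They were also 6 of the 11 listed members at 1 FPKM or more in MDA-MB-231, beside 459 of 1362 listed symbols. The other 4 of the 15 listed members were under 1 FPKM there and were not called. UBE2L6, IFI35 and PARP14 were higher in MDA-MB-231 and not listed for HMLER. Listed for HMLER and under the threshold in MDA-MB-231 were HERC5, IFIT3, DDX60, IFI44 and SAMD9, of which the first 3 had ratios between 1.94 and 1.95 and counting intervals that held 2. When 1 transcript had to be higher in each table, 7 genes were left, with IFIT3 added through NM_001549 (6.27 and 14.8 FPKM in MDA-MB-231). Of the 11 genes measured above 1 FPKM in MDA-MB-231 and listed for HMLER, 8 had the larger ratio in HMLER, and OASL, IFI6 and ISG20 had the larger ratio in MDA-MB-231. Since entry into the HMLER table required a 2-fold difference there, and unlisted transcripts are missing from its sums, this comparison is not even-handed. The untreated FPKM of the 15 was higher in HMLER for 8 and in MDA-MB-231 for 7, on tables normalized separately and with only listed transcripts in HMLER.

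**Figure D3:**
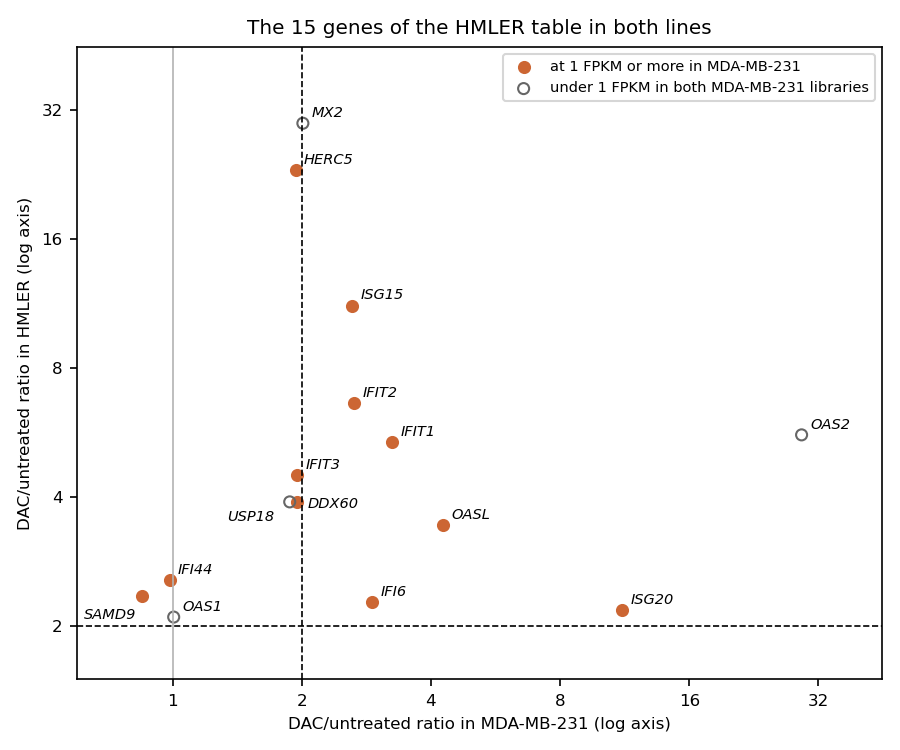
DAC/untreated ratio of the 15 members listed for HMLER, in MDA-MB-231 (x) and HMLER (y), both on log axes; filled points were at 1 FPKM or more in MDA-MB-231, open points were not. Dashed lines mark 2-fold and the grey line a ratio of 1; SAMD9 and IFI44 lie left of it, and all 15 lie above 2 on the y axis because the table lists no others.

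**Figure D4:**
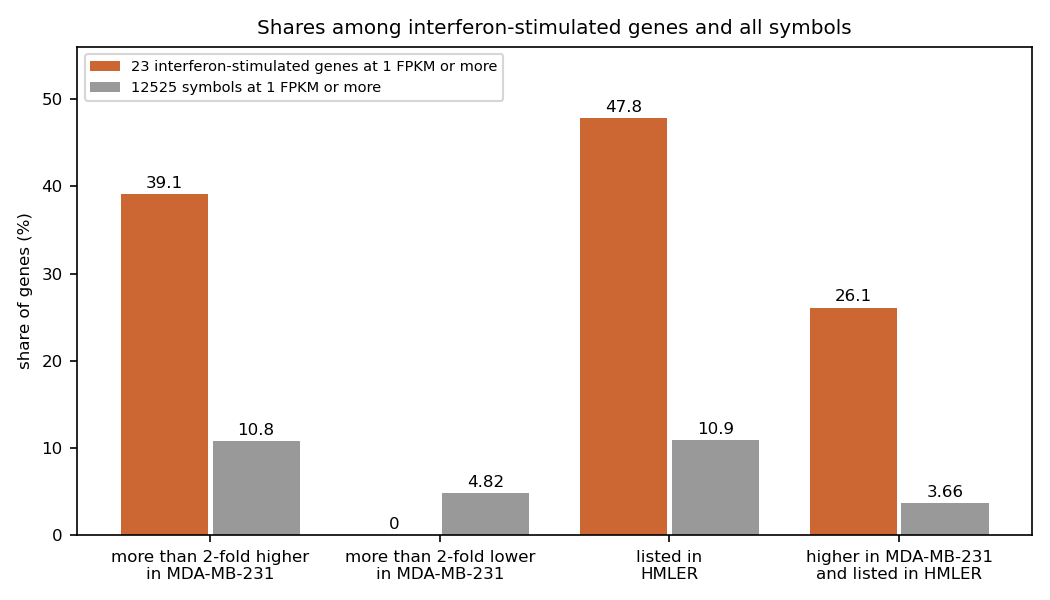
Share, in percent, of the 23 members (orange) and of all 12525 symbols (grey) at 1 FPKM or more in MDA-MB-231 that were more than 2-fold higher or lower there, listed for HMLER, or both higher and listed. The members' shares were 39.1%, 0%, 47.8% and 26.1%, and those of all symbols 10.8%, 4.82%, 10.9% and 3.66%.

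The 17 members under 1 FPKM in both MDA-MB-231 libraries were counted in reads inferred from their FPKM. They had 235 reads in all untreated and 396 after DAC. Of the 12 with 10 or more reads, 7 (58.3%) were more than 2-fold higher after DAC. Among all symbols as low as these, with 10 or more reads, the share was 55.8%, so the members did not stand apart from other low genes. OAS3 had 14 and 90 reads, a ratio of 6.47 (3.66 to 12.3), EPSTI1 8 and 48, a ratio of 6.04 (2.83 to 14.8), and MX1 7 and 31, a ratio of 4.46 (1.93 to 12.0). OAS2 had 1 and 24 reads, with an interval of 3.94 to 993, and IFI44L 1 and 16, with an interval of 2.50 to 675. RSAD2 and IFI27 had 0 reads untreated and 11 each after DAC, 3.69-fold higher if the untreated library is set to a floor of 3 reads. That value is not a lower limit, since the counting interval of the ratio began at 2.53. GBP1, a GTPase that coats intracellular microbes, was the 1 gene that was more than 2-fold lower, with 79 and 28 reads, a ratio of 0.357 (0.223 to 0.555). USP18, GBP2 and SAMD9L had 22 and 41, 33 and 39, and 62 and 44 reads, and were not past 2-fold. OAS1 had 5 reads in each library, with an interval of the ratio of 0.232 to 4.37. MX2 (1 and 2), TRIM22 (1 and 2), XAF1 (1 and 1), BST2 (0 and 2) and CMPK2 (0 and 1) held under 10 reads in all, and no difference was detectable at this depth.

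**Figure D5:**
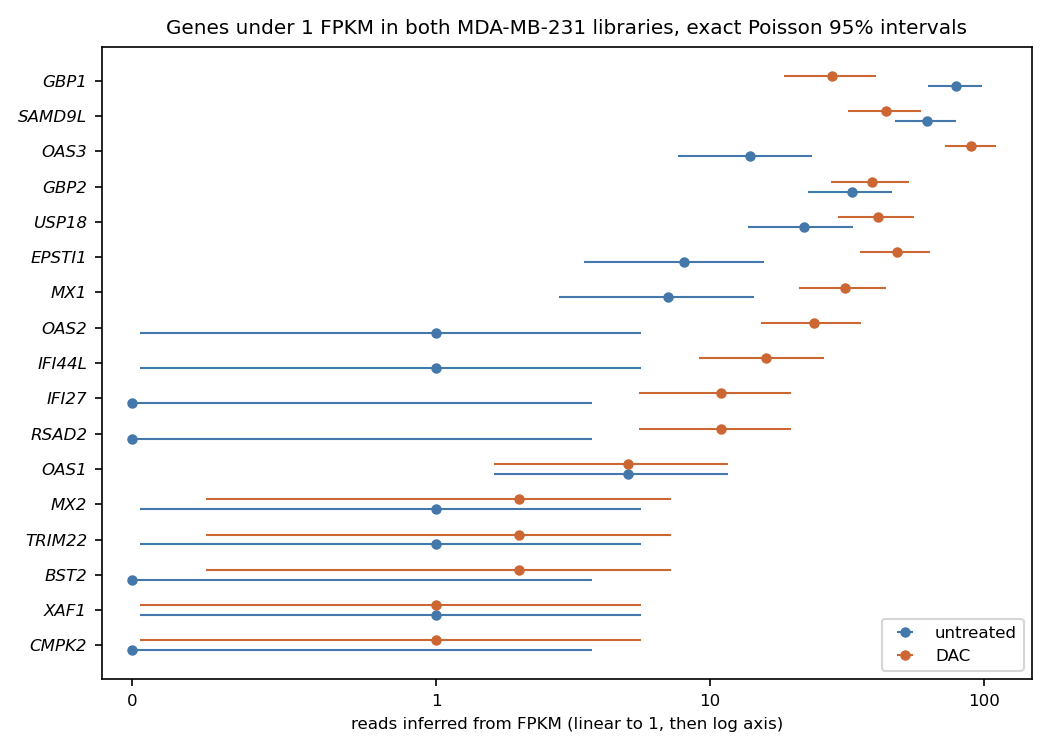
Reads inferred from FPKM in the untreated (blue) and DAC (orange) MDA-MB-231 library for the 17 members under 1 FPKM in both, with exact Poisson 95% intervals, on an axis that is linear to 1 and logarithmic above. OAS3, with 14 and 90 reads, EPSTI1, MX1, OAS2, IFI44L, IFI27 and RSAD2 had more reads after DAC, and GBP1, with 79 and 28, had fewer.

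In MDA-MB-231, 22 members had 1 transcript and 18 had more, and in some of the latter the FPKM assigned to the transcripts moved unequally. For HERC6, NM_001165136 went from 1.06 to 0.296 FPKM while NM_017912 went from 0.222 to 1.51, so the sum moved less than either. For STAT2, NM_005419 went from 6.33 to 8.0 FPKM and NM_198332 from a value near 0 to 2.34. For PARP9, NM_001146104 went from 0.802 to 0.156 FPKM and NM_001146105 from 0.00664 to 1.55. For IFI6, NM_002038 went from 5.18 to 21.4 FPKM and NM_022872 from 4.18 to 7.02. Nearly all of IFITM3 was assigned to NR_049759. These transcripts share most of their sequence, and Cuffdiff's bounds on each overlapped between the libraries, so which transcript a read belongs to is uncertain. Of the 9 higher genes, 5 had a single transcript. With the transcript of the largest FPKM over both libraries in place of the sum, HERC6, IFIT3 and PARP9 were also past 2-fold, but that choice favours transcripts high after DAC. Their transcripts with the largest untreated FPKM had ratios of 0.280, 1.56 and 0.194, and with that choice, added after the data were seen, the same 9 genes were higher.

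The genes upstream of these targets were then examined. Of 21 interferon genes found in the MDA-MB-231 table, 20 were listed at 0 in both libraries, and IFNK had 0.0252 FPKM after DAC. None was listed for HMLER. Of 6 receptor genes, 5 were at 1 FPKM or more in MDA-MB-231 and none of these was past 2-fold, with IFNAR1 at 8.27 and 6.25 FPKM and IFNAR2, the other chain of the type I receptor, at 5.29 and 7.28. The sixth, IFNLR1, a chain of the interferon lambda receptor, was under 1 FPKM, with 10 and 75 inferred reads. At such levels 55.8% of all symbols with 10 or more reads were more than 2-fold higher. Of 9 signalling genes and transcription factors, 1 (11.1%) was higher and none lower, a share near the 10.8% of all symbols. IRF7, a factor that drives interferon genes and is itself an interferon target, had 2.67 and 19.1 FPKM in MDA-MB-231, 7.15-fold, and 2.95 and 15.1 FPKM in HMLER, 5.11-fold. IRF1, another factor of the family, had 2.80 and 5.54 FPKM in MDA-MB-231, a ratio of 1.98, while IRF2, its antagonist, had 5.57 and 3.25. IRF9, which pairs with STAT2, had a ratio of 1.57.

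Of 9 inhibitors of the pathway at 1 FPKM or more in MDA-MB-231, 1 (11.1%) was higher and 2 (22.2%) were lower, beside 10.8% and 4.82% of all symbols. PTPN6, a phosphatase best known from blood cells, had 0.183 and 8.36 FPKM, and passed the filter only through the DAC library. SOCS3, which blocks JAK kinases, had 40.5 and 8.66 FPKM, a ratio of 0.214. SOCS2 had 29.5 and 10.1 FPKM in MDA-MB-231, a ratio of 0.342, and was listed for HMLER at 0.981 and 4.36 FPKM.

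A further list of 55 interferon-stimulated genes, of which 54 were found in MDA-MB-231, was also examined. Of 38 at 1 FPKM or more in MDA-MB-231, 5 (13.2%) were higher and 3 (7.89%) lower, beside 10.8% and 4.82% of all symbols, with a median log2 change of -0.12, close to that of all symbols. Of the 5, C19orf66, IFIH1 and LAMP3 passed the filter only through the DAC library. HMLER listed 6 of the 38 (15.8%), beside 10.9% of all symbols at that level. IFI30, a lysosomal thiol reductase, had 13.1 and 72.1 FPKM in MDA-MB-231, LAMP3, a lysosomal membrane protein, had 0.202 and 1.60, and GMPR, a nucleotide enzyme, had 11.4 and 4.23. LAMP3 was also listed for HMLER, at 2.07 and 10.3 FPKM. PSMB8, PSMB9 and TAP1 were listed at 0 in both MDA-MB-231 libraries. Each of these has 7 loci on alternate haplotypes of the HLA region in that table, whose part in the values of 0 was not tested. TAP1 was listed for HMLER at 23.4 and 50.9 FPKM.

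The labelled line was checked against its markers. In untreated MDA-MB-231, the mesenchymal markers VIM and CD44 stood at 3066 and 212 FPKM, and the epithelial markers KRT8, KRT18 and EPCAM at 154, 174 and 7.90. ERBB2 stood at 11.8 FPKM, and ESR1, PGR and CDH1 had no reads. After DAC the ratio of VIM was 0.370, that of ZEB1, another mesenchymal marker, 0.491 and that of FN1 2.80. Of the epithelial and mesenchymal markers, HMLER listed KRT5 at 9.85 and 37.1 FPKM, KRT14 at 11.6 and 52.2, EPCAM at 0.450 and 2.17 and CD44 at 1.23 and 8.26. CD44 has 8 transcripts in MDA-MB-231, and its HMLER values sum the listed ones only. They can therefore be a part of its level and do not compare with the 212 FPKM of MDA-MB-231. Markers of other cell types moved with DAC in MDA-MB-231. The summed FPKM of 5 leukocyte markers was 0.150 untreated and 1.21 after DAC, with PTPRC at 0.0247 and 0.119. The sum of 3 endothelial markers was 0.0969 and 0.432. The sum of 3 fibroblast markers was 1.15 and 17.4, most of it from COL1A1, at 0.853 and 15.6. Of these 11 genes, 10 had more reads after DAC and LYZ had 4 in each library. Most were under 1 FPKM, where 55.8% of all symbols with 10 or more reads were more than 2-fold higher. The part of all these marker values in the differences of the interferon-stimulated genes was not tested. In bulk RNA, more cells that express a gene and more RNA per cell cannot be told apart.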

How the data were processed

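RNA-seq of HMLER and MDA-MB-231 cells with and without DAC was analysed from the deposited tables. According to the methods and the submitters' processing notes, the authors aligned reads to hg19 with TopHat2 and ran Cuffdiff through Galaxy. Tool versions, and how Cuffdiff scaled the libraries, are not given in the sources used here. The deposited values are FPKM per RefSeq transcript, with Cuffdiff's lower and upper bounds for MDA-MB-231. The deposited columns of fold change, log2 change, p-value and q-value hold the authors' own comparisons and were not used. The label of the untreated MDA-MB-231 library names another cell line number, and its title was followed.

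FPKM was summed over the transcripts of a symbol, in HMLER over the listed ones only. Symbols at 1 FPKM or more in at least 1 library were kept, and a gene was counted as higher or lower past a ratio of 2 or under 0.5, without a pseudocount. Log2 changes used a pseudocount of 1, which understates low genes. In MDA-MB-231, reads were inferred from transcript length minus 190 bases, at 0.0236 FPKM per read and effective kilobase untreated and 0.0237 after DAC. Of 947 and 1052 low values of longer genes with a single transcript, on which this was fitted, 100% lay within 0.1 of a whole read. For other genes the inferred reads were not always whole, as in ISG20 with 13.18 untreated, and were rounded. Intervals of read ratios are exact binomial at 95%, with a floor of 3 reads, and cover counting error only. FPKM is not a count, and with 1 value per condition no test across genes was run. All columns holding values of a sample were matched (0 left out). Gene positions are in hg19 and promoters in RefSeq's GRCh38.p14, each as its source gives them.

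The members and all other lists were chosen with earlier results of these data known. All 40 members are accounted for by role, with full values for those past 2-fold in MDA-MB-231 or listed for HMLER and for the highest of each role. Of the other lists, counts and at most 3 genes with the largest log2 change at 1 FPKM or more were to be named, and genes named beyond that were chosen after their values were seen. Alternatives were other filters, pseudocounts and thresholds, 1 transcript per symbol, division by the median ratio, status OK, and bounds that do not overlap. The largest transcript by untreated FPKM was added after seeing the data. Some items are not reported here. The steps were tested on simulated data. The software was Python 3.11.15 with pandas 2.3.3, numpy 2.4.6, matplotlib 3.10.9 and scipy 1.17.1.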

Additional observations from a re-analysis of the deposited data

Results flagged for a closer look

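Values on opposite sides of a DAC/untreated ratio of 1 were found for 7 interferon pathway genes that were listed for HMLER and had a ratio under 1 in MDA-MB-231, 2 of them among the 40 interferon-stimulated genes. The genes listed for HMLER and at 1 FPKM or more in MDA-MB-231 were 11 members, 1 signalling gene, 2 inhibitors and 6 genes of the further list. Of all 1362 listed symbols at 1 FPKM or more in MDA-MB-231, 348 (25.6%) had a ratio under 1 there. Of the 7, SOCS2 alone had an MDA-MB-231 ratio under 0.5. SAMD9 had a ratio of 0.849 in MDA-MB-231 and 2.35 in HMLER. IFI44 had a ratio of 0.984 in MDA-MB-231, with a counting interval of 0.849 to 1.14 that holds 1, and 2.56 in HMLER. Of the upstream and further genes, SOCS2, an inhibitor of cytokine signalling, had 0.342 in MDA-MB-231 and 4.44 in HMLER. DDX58 (RIG-I), a sensor of viral RNA, had 0.922 and 4.10, and ZC3HAV1, which targets viral RNA for decay, had 0.913 and 2.87. The nuclear body proteins SP100 and SP110 had 0.636 and 2.24, and 0.679 and 2.93. The difference between the lines was not tested, since each line has 1 value per condition. The HMLER ratios cover listed transcripts only, those of MDA-MB-231 all transcripts. Divided by the median ratio of all genes in MDA-MB-231, 3 of the 7 came to 1 or more: IFI44 at 1.08, DDX58 at 1.01 and ZC3HAV1 at 1.0002.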

How the results depend on the processing

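The count of members more than 2-fold higher in MDA-MB-231 (9) was 20 with no filter on low values, 14 with a 1.5-fold threshold and 0 when Cuffdiff's bounds also had to be apart. Under the other alternatives it ran from 6 to 12: HERC6, IFIT3 and PARP9 were added with the largest transcript over both libraries, a choice that favours transcripts high after DAC, DDX60, HERC5 and IFIT3 by division by the median ratio, and ISG20, OASL and PARP14 were lost with 5 FPKM asked of at least 1 library. With no filter, the count lower was 1 (GBP1) in place of 0, and 50% of the members and 27.9% of all symbols were higher. After division by the median ratio these shares were 52.2% and 12.1%. With 5 FPKM asked of at least 1 library they were 37.5% and 4.95%. With bounds apart, 1.06% of all symbols were higher. No share of all symbols was computed for the 1.5-fold threshold, status OK, the pseudocount or 1 transcript per symbol. With the largest transcript by untreated FPKM, chosen after seeing the data, the same 9 were higher, 1 was lower (HERC6) and the median was 0.54. The median log2 change (0.63) was 0.82 with the largest transcript over both libraries, 0.28 with no filter, 0.74 after division by the median ratio, 0.87 and 0.95 with pseudocounts of 0.1 and 0.01. The number higher in both lines (6) ran from 4 to 9, and that listed for HMLER (15) was 13 or 14 under stricter filters. For these alternatives the share of all symbols was not computed. Neither this median nor the log2 change of any of the 9 genes changed sign under the alternatives run. Depth limits what can be said of the members under 10 reads. No paired analysis was possible because HMLER replicates were deposited as 1 merged value and MDA-MB-231 had none. Leaving out a replicate was not run for the same reason.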

Other observations

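Among sensors of viral RNA in the further list, values differed. IFIH1 (MDA5), which binds long double-stranded RNA, had 0.283 and 1.76 FPKM in MDA-MB-231, passing 1 FPKM only after DAC, and 1.86 and 4.47 FPKM in HMLER. DHX58 (LGP2), its cofactor, had 9 and 95 inferred reads in MDA-MB-231, where 55.8% of such low genes were more than 2-fold higher, and was not listed for HMLER. EIF2AK2 (PKR), another sensor, had a ratio of 0.726 in MDA-MB-231, and ZBP1 was listed at 0 in both libraries. GBP5, a GTPase of the same family as GBP1, had 1 and 42 reads in MDA-MB-231, also under 1 FPKM, where the same 55.8% holds. The chemokine CXCL10, a common marker of interferon signalling, had 0 reads in both MDA-MB-231 libraries, and CXCL11 had 0 and 5. These genes were named after their values were seen.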
